A study of Mus musculus with 2 samples.

Results

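The genes Col4a1, Col4a2, Col4a3, Col4a4, Lama1, Lama5, Lamb1, Lamb2, Lamc1 and Nid1 encode collagen IV chains, laminin chains and nidogen 1 of the basement membrane. They were taken by name and make up 10 of the 21938 protein-coding genes of the GENCODE M21 annotation on chromosomes 1 to 19, X and Y. Their open chromatin was read from DNase-seq peak lists of kidney tissue from newborn mice (strain B6NCrl, age 0 days, no treatment or transgene named in the labels), 1 group with 2 replicates. DNase-seq marks DNA that the nuclease DNase I can reach, and a peak is a stretch where such cuts pile up. The 2 lists held 266133 and 257133 peaks, at an unknown sequencing depth. According to the labels the replicates came from different tissue samples with a common donor entry, and pooling of tissue is not mentioned, so the spread between replicates may be technical. Around the 10 genes, 269 shared sites were found among the 197749 of the whole genome, a shared site being a stretch of overlapping peaks that holds a peak of each replicate. Of these 269 sites, 225 were distal, with a centre more than 1 kb from every annotated transcript start, and 44 were promoter sites.

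Basement membranes are thin sheets of extracellular matrix in which a laminin network and a collagen IV network are linked by nidogens and perlecan. Collagen IV is secreted as a triple helix of chains, and a laminin is a trimer of an alpha, a beta and a gamma chain. In the developing glomerulus the collagen chains of Col4a1 and Col4a2 are joined and largely replaced by those of Col4a3, Col4a4 and Col4a5, which podocytes make, and the laminin chains of Lama1 and Lamb1 give way to those of Lama5 and Lamb2, while the gamma chain of Lamc1 stays. Variants of the human counterparts of Col4a3 and Col4a4 cause Alport syndrome, and those of Lamb2 cause Pierson syndrome. Below, Col4a1, Col4a2, Lama1 and Lamb1 are called the fetal chains and Col4a3, Col4a4, Lama5 and Lamb2 the mature chains.

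The start regions on which the comparisons turn are given first, 5′ to 3′ on the strand named, in mm10 (GRCm38) coordinates and read from the GRCm38 reference genome. They are the interval between the most 5′ starts of the divergent Col4a3 and Col4a4 and the strongest promoter sites of Lama1, Lama5, Lamb2 and Lamc1, without annotated exons. Capitals mark matches, on either strand, to any of 17 motif spellings listed with the processing.
Col4a3-Col4a4 start interval, chr1:82586850-82586920, plus strand: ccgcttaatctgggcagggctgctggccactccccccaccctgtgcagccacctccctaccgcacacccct
Lama1 promoter, chr17:67697101-67697250, plus strand: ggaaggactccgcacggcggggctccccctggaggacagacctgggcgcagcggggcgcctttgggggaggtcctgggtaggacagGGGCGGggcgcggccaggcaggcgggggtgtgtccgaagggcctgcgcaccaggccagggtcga
Lama5 promoter, chr2:180225860-180225990, minus strand: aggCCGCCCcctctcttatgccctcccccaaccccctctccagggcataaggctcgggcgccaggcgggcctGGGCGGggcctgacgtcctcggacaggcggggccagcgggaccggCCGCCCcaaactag
Lamb2 promoter, chr9:108478901-108479070, plus strand: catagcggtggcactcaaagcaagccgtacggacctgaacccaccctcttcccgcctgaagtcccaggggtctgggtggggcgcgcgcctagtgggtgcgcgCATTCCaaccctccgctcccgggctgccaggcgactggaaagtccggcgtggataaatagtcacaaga
Lamc1 promoter, chr1:153333001-153333170, minus strand: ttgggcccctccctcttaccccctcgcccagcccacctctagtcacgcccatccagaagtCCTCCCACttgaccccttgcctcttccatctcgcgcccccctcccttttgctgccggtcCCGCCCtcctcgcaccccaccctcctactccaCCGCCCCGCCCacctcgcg
The Lama5 stretch held 3 matches to GGGCGG, the core that SP and KLF factors bind, and the Lama1 stretch held 1. The Lamc1 stretch held 3 such matches, of which the last 2 share a base, and 1 match to the WT1 spelling GTGGGAGG. The Lamb2 stretch held 1 match to the TEAD spelling GGAATG, and the collagen interval held no match to any of the 17. How often these spellings occur over all starts and distal sites is given below.

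The second set holds strong intronic sites of the collagen genes and of Lamb1, shown because their signal passed that of the gene's own start in at least 1 replicate.
Col4a1 intron site, chr8:11257001-11257190, minus strand: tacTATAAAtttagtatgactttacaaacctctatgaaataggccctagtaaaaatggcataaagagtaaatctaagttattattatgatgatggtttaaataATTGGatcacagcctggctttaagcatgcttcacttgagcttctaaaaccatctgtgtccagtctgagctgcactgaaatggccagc
Col4a2 intron site, chr8:11327421-11327570, plus strand: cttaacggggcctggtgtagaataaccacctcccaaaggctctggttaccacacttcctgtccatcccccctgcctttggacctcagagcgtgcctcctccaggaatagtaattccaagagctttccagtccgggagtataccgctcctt
Col4a3 intron site, chr1:82612381-82612530, plus strand: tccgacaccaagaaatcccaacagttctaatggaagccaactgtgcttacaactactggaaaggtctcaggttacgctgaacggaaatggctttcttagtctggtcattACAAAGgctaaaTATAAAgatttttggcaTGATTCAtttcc
Col4a4 intron site, chr1:82476801-82477010, minus strand: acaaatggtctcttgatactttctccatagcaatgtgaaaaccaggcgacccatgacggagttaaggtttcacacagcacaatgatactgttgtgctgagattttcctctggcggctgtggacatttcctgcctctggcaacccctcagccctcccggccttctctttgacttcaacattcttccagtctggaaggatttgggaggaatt
Lamb1 intron site, chr12:31271441-31271610, plus strand: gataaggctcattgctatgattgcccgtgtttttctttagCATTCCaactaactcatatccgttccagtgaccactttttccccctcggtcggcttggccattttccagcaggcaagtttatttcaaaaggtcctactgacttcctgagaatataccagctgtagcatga
Among these, the Col4a3 site held the AP-1 spelling TGANTCA, the SOX spelling ACAAAG and the TATA spelling TATAAA, and the Col4a1 site held CCAAT (as ATTGG) and TATAAA. The Lamb1 site held GGAATG on its minus strand. The Col4a2 and Col4a4 sites held none of the 17 spellings. GC content was 54.7% at the Col4a2 site and between 35.8% and 48.6% at the other 4, against 64.1% to 76.0% in the 5 start regions.

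In each replicate all 10 genes had a promoter peak, that is a peak reaching within 1 kb of any of their transcript starts, as did 71.8% of all protein-coding genes in both replicates. Their promoter signal, the authors' own peak value in the strongest promoter peak, lay below the median of all genes with a promoter peak (94.1 in replicate 1 and 102.7 in replicate 2) in both replicates for 8 of the 10 genes. By the peak nearest the most 5′ start (medians of all genes 77.8 and 82.6) it was 4 of 10, namely Col4a3, Col4a4, Lama5 and Nid1, while Lama1 and Lamb2 were above the median in both replicates and the other 4 in 1 of them. By the strongest peak only Lamc1 was at or above the 75th percentile, 1 of 10 members beside 25.3% of all genes with a promoter peak in both replicates. In bulk tissue, a lower signal from fewer cells with an open site cannot be told apart from a less open site in each cell. With 1 group and 2 replicates no test between conditions was possible, and values are given per replicate and as mean ± SD (n = 2).

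Lamc1 encodes the gamma chain shared by the fetal and the mature laminin trimers and had the highest promoter signal of the set within 1 kb of a start. Its strongest promoter peak, on chromosome 1 about 300 bp upstream of the start (310 bp in replicate 1 and 290 bp in replicate 2), had a signal of 155.0 and 198.5 (176.7 ± 30.8), at percentiles 76.4 and 83.3 of all genes with a promoter peak. Both values stood above those of every other member in either replicate. This order depends on which peak is taken. With a window of 2 kb the Lamb2 value was 181.9, above Lamc1 at 176.7. The site of that signal (chr9:108490581-108490730) lay 10.9 kb downstream of the Lamb2 start and 54 bp from the nearest start, that of Usp19. By the peak nearest the start, Lamc1 had 22.3 in replicate 1, from a small peak 290 bp downstream, and 198.5 in replicate 2 (mean 110.4). The −log10 p of the peak about 300 bp upstream was at the deposited maximum of 324 in both replicates. The gene (ENSMUSG00000026478, chr1:153218922-153332786, minus strand) had the most CpG-rich start of the 10, with an observed over expected CpG ratio of 0.787 and 72.5% GC over 500 bp to each side.

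Lama1 and Lamb1 encode the alpha and beta chains of the fetal glomerular laminin. Lama1 (ENSMUSG00000032796, chr17:67697259-67822647, plus strand) had a signal of 89.5 and 86.7 (88.1 ± 1.99) in a peak centred 83 bp upstream of its start. Lamb1 (ENSMUSG00000002900, chr12:31265234-31329644, plus strand) had 86.5 and 67.1 (76.8 ± 13.8) in a peak over its start. The lower Lama1 value (86.7) lay just above the higher Lamb1 value (86.5). Lama1, Col4a2, Col4a1 and Lamb1 were neighbours in the order of the means, and each overlapped the next in its range, so their order did not stand clear of the spread.

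Lama5 and Lamb2 encode the alpha and beta chains that take their place in the mature glomerulus. Lama5 (ENSMUSG00000015647, chr2:180176373-180225859, minus strand) had 43.0 and 46.3 (44.6 ± 2.34) in a peak centred 57 bp upstream of its start, at percentiles 23.9 and 24.9. Lamb2 (ENSMUSG00000052911, chr9:108479736-108490530, plus strand) had 108.9 and 96.3 (102.6 ± 8.92) in a peak 760 and 740 bp upstream. The peak over the Lamb2 start itself measured 86.1 in both replicates. Lamb2 was thus the second highest of the 10 by its upstream peak and stood among the fetal chains by its start peak, and Lama5 stood below all fetal chains in both replicates. The region around the Lamb2 start was poor in CpG (ratio 0.295, 52.0% GC), beside a median of 0.552 and 54.7% over all genes; 7 of the 10 members lay above that CpG median.

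Nid1 encodes nidogen 1, which bridges laminin and collagen IV. Nid1 (ENSMUSG00000005397, chr13:13437551-13512269, plus strand) had 24.9 and 27.8 (26.4 ± 2.04), at percentiles 13.4 and 14.8. Its start was among the weakest of the set, above only the start shared by Col4a3 and Col4a4. Both Nid1 values lay below both Lama5 values and above both Col4a3 values.

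**Figure D1:**
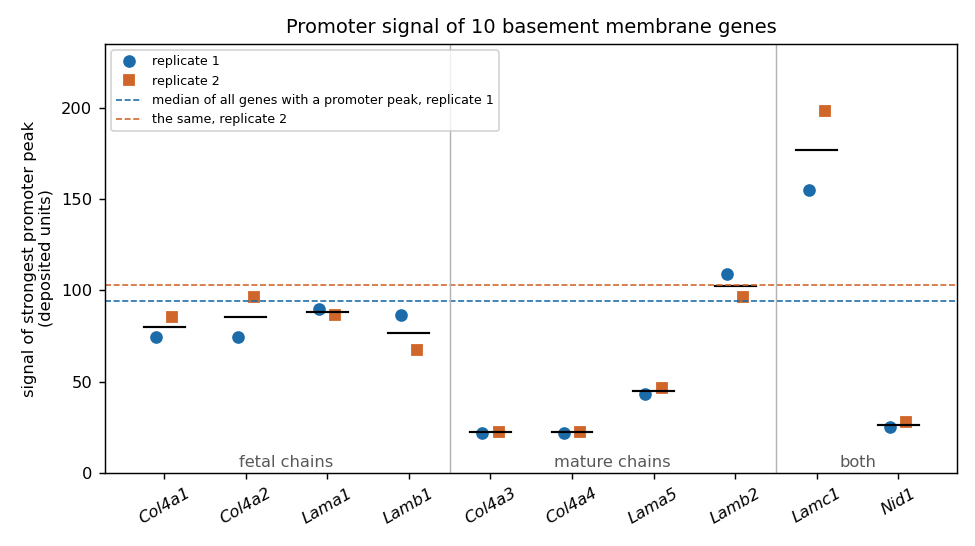
Signal of the strongest promoter peak (y axis, the authors' units) of each gene in replicate 1 (circles) and replicate 2 (squares), with black bars for the mean and dashed lines for the median of all genes with a promoter peak in each replicate. Lamc1 stands above the other genes at 155.0 and 198.5, and Col4a3, Col4a4 and Nid1 lie between 22.0 and 27.8.

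The 4 collagen IV genes lie in pairs that start next to each other and run apart. Col4a1 (ENSMUSG00000031502, chr8:11198423-11312826, minus strand) and Col4a2 (ENSMUSG00000031503, chr8:11312805-11449287, plus strand), which encode the chains of nearly all basement membranes, have annotated starts 21 bp apart inside overlapping first exons. A single peak covered both starts, with a signal of 74.7 and 85.4 (80.1 ± 7.58). Col4a3 (ENSMUSG00000079465, chr1:82586921-82722059, plus strand) and Col4a4 (ENSMUSG00000067158, chr1:82448423-82586849, minus strand) encode chains of the mature glomerular network. Their most 5′ annotated starts lie 72 bp apart, and that of Col4a3 is listed with a retained-intron transcript. Their single shared peak, over the interval printed above, had 22.0 and 22.6 (22.3 ± 0.431) and was the sole promoter peak of either gene. The Col4a1/Col4a2 start was therefore higher in both replicates, 3.39-fold and 3.77-fold, a log2 ratio of 1.84 ± 0.109 that exceeded the spread between replicates. No statistical test applies to this ratio, which compares 2 loci in the same libraries.

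The strongest peak counted for Col4a2 in replicate 2 was another one. An intron 11 peak (71.0 and 96.1; chr8:11405841-11406010) reaches, by its edge, within 1 kb of the start of the short retained-intron transcript of Col4a2, its centre being 1028 and 1008 bp away. With it, the Col4a2 value was 74.7 and 96.1 (85.4 ± 15.2) and the log2 ratio between the pairs 1.76 and 2.09 (1.92 ± 0.23). It shows how the 1 kb limit acts: the site counts as a promoter peak by its edge and as a distal site by its centre. Among the strongest promoter peaks of all genes, the start peak of Col4a1 stood at percentiles 39.8 and 42.5 and that of Col4a3 and Col4a4 at 11.4 and 11.7. Among the peaks nearest the start they stood at 48.7 and 51.1 and at 19.5 and 19.8. The start of Col4a1 and Col4a2 was also richer in CpG, with ratios of 0.775 and 0.785 against 0.452 and 0.459.

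Across the gene bodies the difference lay in the number of sites and not in their strength. The Col4a1/Col4a2 locus (250.9 kb) held 107 and 109 peaks, or 42.7 and 43.4 per 100 kb, and the Col4a3/Col4a4 locus (273.6 kb) held 38 and 36, or 13.9 and 13.2 per 100 kb. The density was thus 3.07-fold and 3.29-fold higher at Col4a1/Col4a2. Shared distal sites numbered 84 and 25, which is 33.5 and 9.14 per 100 kb. The median signal of those distal sites was nearly equal, 26.5 and 24.3 at Col4a1/Col4a2 against 26.6 and 23.5 at Col4a3/Col4a4.

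With nearly equal distal medians, the lower Col4a3/Col4a4 start also stood lower among its own distal sites. The counts that follow restate the difference between the starts, and the share over all genes is not given here. Of the 20 distal sites within 50 kb of the start or in the body of Col4a3, 9 had a higher signal than the start peak in both replicates, and 11 of 24 did so for Col4a4, with sites near the start common to both counts. For Col4a1 it was 1 of 57 and for Col4a2 1 of 66. The strongest site of Col4a3, in intron 1 and 25.5 kb into the gene, had 84.5 and 93.2 (88.8 ± 6.11). A neighbouring intron 1 site 10.5 kb from the start (chr1:82597301-82597450) had 75.2 and 68.0, and an intron 2 site (chr1:82641781-82641930) had 55.7 and 66.4. All of these values exceeded the 22.0 and 22.6 of the shared start. In Col4a4 the strongest site in the body lay 109.9 kb from the start in intron 37, with 63.5 and 72.2 (67.8 ± 6.14).

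At the Col4a1/Col4a2 pair the strongest distal site was in Col4a2 intron 3, 14.7 kb from the start, with 106.5 and 107.4 (106.9 ± 0.586). It was the site that exceeded the promoter signal of both genes in both replicates. In Col4a1 the strongest site of the body was in intron 2 (80.7 and 81.0), which stood above the start peak in replicate 1 and below it in replicate 2. A Col4a2 intron 4 site (chr8:11392881-11393030), 80.2 kb from the start, had 72.6 and 75.4. An intron 1 site of Col4a1, with 62.5 and 67.8, lay 220 and 240 bp from the start of a shorter coding transcript of Col4a1 and so counted as a promoter peak.

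**Figure D2:**
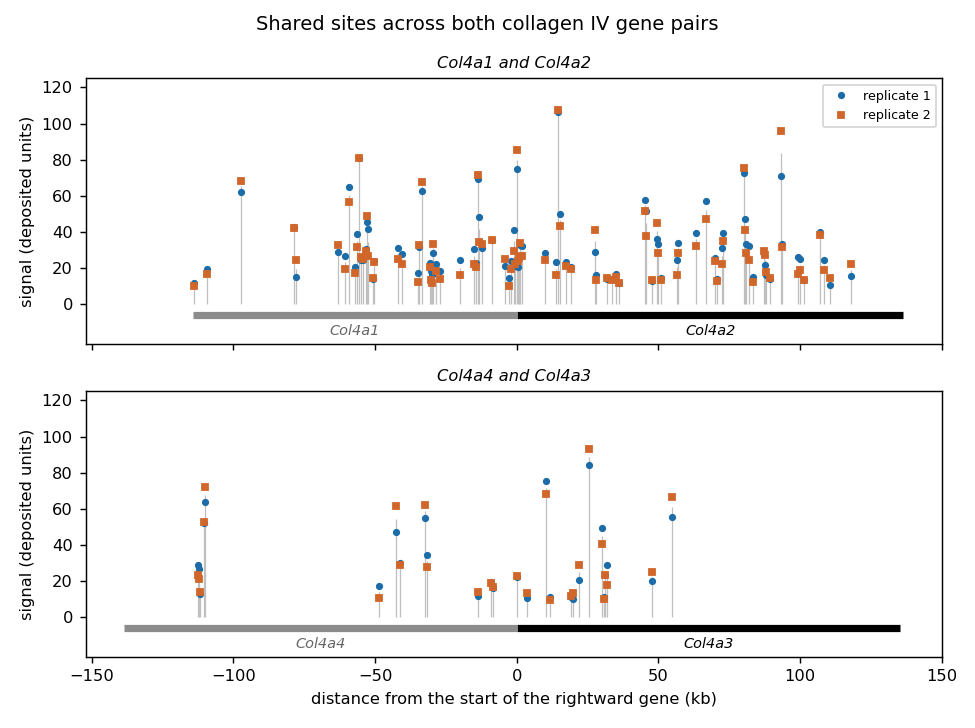
Signal (y axis, the authors' units) of shared sites along both collagen IV gene pairs in replicate 1 (circles) and replicate 2 (squares), against the distance in kb from the start of the gene that runs rightward; grey and black bars mark the gene bodies and grey lines reach the mean. The upper pair holds 84 distal sites inside its genes and the lower pair 25, and the lower pair has no shared site in the last 80.1 kb of Col4a3.

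Most of the 10 genes lay in regions dense in distal sites. Within 50 kb of the most 5′ start, Col4a1 and Col4a2 had 39 shared distal sites in their common window (percentile 99.98 of all protein-coding genes), Lamb1 had 29 (99.5), Lamc1 24 (98.0), the Col4a3 and Col4a4 window 19 (94.5), Lama5 17 (91.9) and Lama1 15 (88.1). Nid1 had 10 (71.8) and Lamb2 had 2 (24.2). The median of the 10 members was 19 and that of all genes 6. At least 10 sites were found for 9 of the 10 members, beside 30.5% of all genes, and at least 20 sites for 4 of 10, beside 4.93%; the collagen pairs share windows, so the 10 genes make 8 loci. At the edge of the window, the Col4a2 site just inside (49.9 kb) had signals of 33.1 and 28.1 and the one just outside (51.1 kb) 14.5 and 13.6.

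Counts inside the gene bodies gave a similar picture for some genes and not for others. Per 100 kb of gene, Col4a2 had 33.7 distal sites, Col4a1 33.2 and Lamb1 31.1, at percentiles 99.6, 99.4 and 98.4 among genes within 1.5-fold of their length, whose median lay between 5.84 and 7.28. Lamc1 had 22.8 (94.5), Nid1 18.7 (90.4) and Lama5 18.2 (90.2). Col4a3 (8.88, percentile 58.1), Col4a4 (9.39, 60.2) and Lama1 (7.18, 51.0) were near the median of genes of their length. In Lama1, 8 of the 15 distal sites within 50 kb lay upstream of the start. Its percentile of 88.1 there was 70.9 within 100 kb and 77.3 with the peaks of replicate 2 alone. Lamb2, a gene of 10.8 kb, had 0 distal sites in its body, and 19 of the 21 shared sites within 50 kb of its start were promoter sites, of neighbouring genes in all but its own 2.

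**Figure D3:**
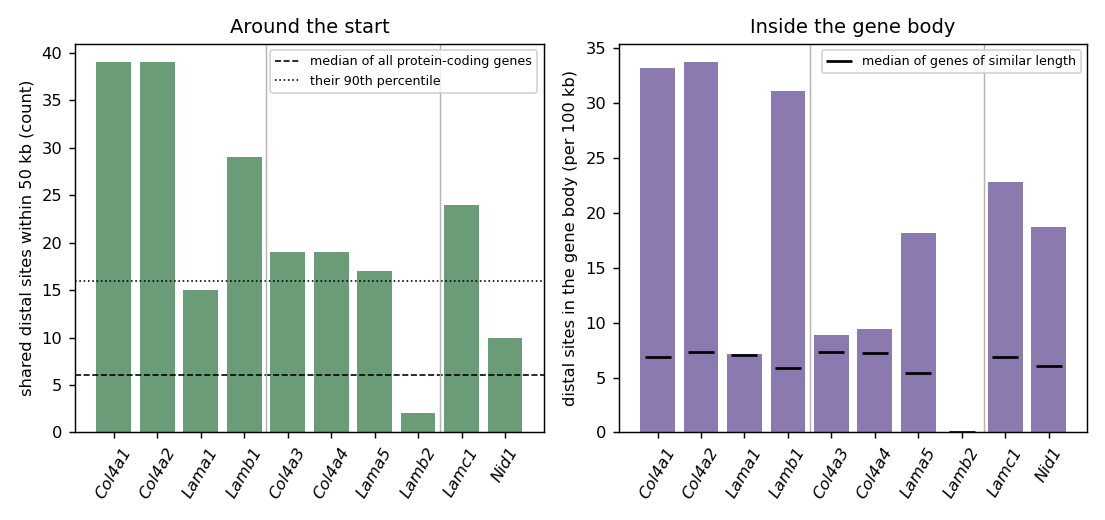
Left, number of shared distal sites within 50 kb of the most 5′ start of each gene, with the median (6) and 90th percentile (16) of all protein-coding genes as lines; right, distal sites per 100 kb of gene body, with the median of genes of similar length as black bars. Col4a1 and Col4a2 (39 sites, 1 shared window) and Lamb1 (29) are highest on the left, and Lamb2 is lowest on both sides.

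Among the laminin genes, strong distal sites were placed differently. In Lamb1 the strongest was in intron 3, 6.29 kb into the gene, with 97.0 and 78.8 (87.9 ± 12.8), above the start peak of the same replicate both times. An upstream Lamb1 site at 16.9 kb (chr12:31248261-31248410) had 79.8 and 79.0. In Lamc1 the strongest distal site lay 3.14 kb into intron 1 (chr1:153329561-153329730; 70.7 and 68.3), below the promoter value of 155.0 and 198.5. Lamb1 thus had an intronic site as strong as its start, and none of the 34 distal sites of Lamc1 reached its promoter signal in both replicates.

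For Lama1, the strongest distal site lay 29.1 kb upstream (chr17:67668101-67668270; 48.8 and 62.3), and the strongest in the body was in intron 30 (chr17:67779941-67780090; 46.6 and 48.5). None of its 17 distal sites exceeded the promoter signal in both replicates. The strongest distal site in the Lama5 window was 25.6 kb upstream (chr2:180251361-180251530; 59.4 and 83.6), but it lay nearer to another gene, 5931 bp from the start of Rps21. Within the Lama5 body the strongest site, in intron 1 (chr2:180222301-180222490), had 34.4 and 35.1. The 2 distal sites of Lamb2 were far from its start, the stronger one 47.8 kb upstream (chr9:108431821-108431970; 33.6 and 36.4). Nid1 had its strongest site late in the gene, in intron 15 (chr13:13504141-13504310; 58.7 and 58.9), and 3 of its 15 distal sites exceeded its start in both replicates. The strongest distal site of Nid1 within 50 kb was upstream (chr13:13415541-13415710; 35.8 and 37.9).

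**Figure D4:**
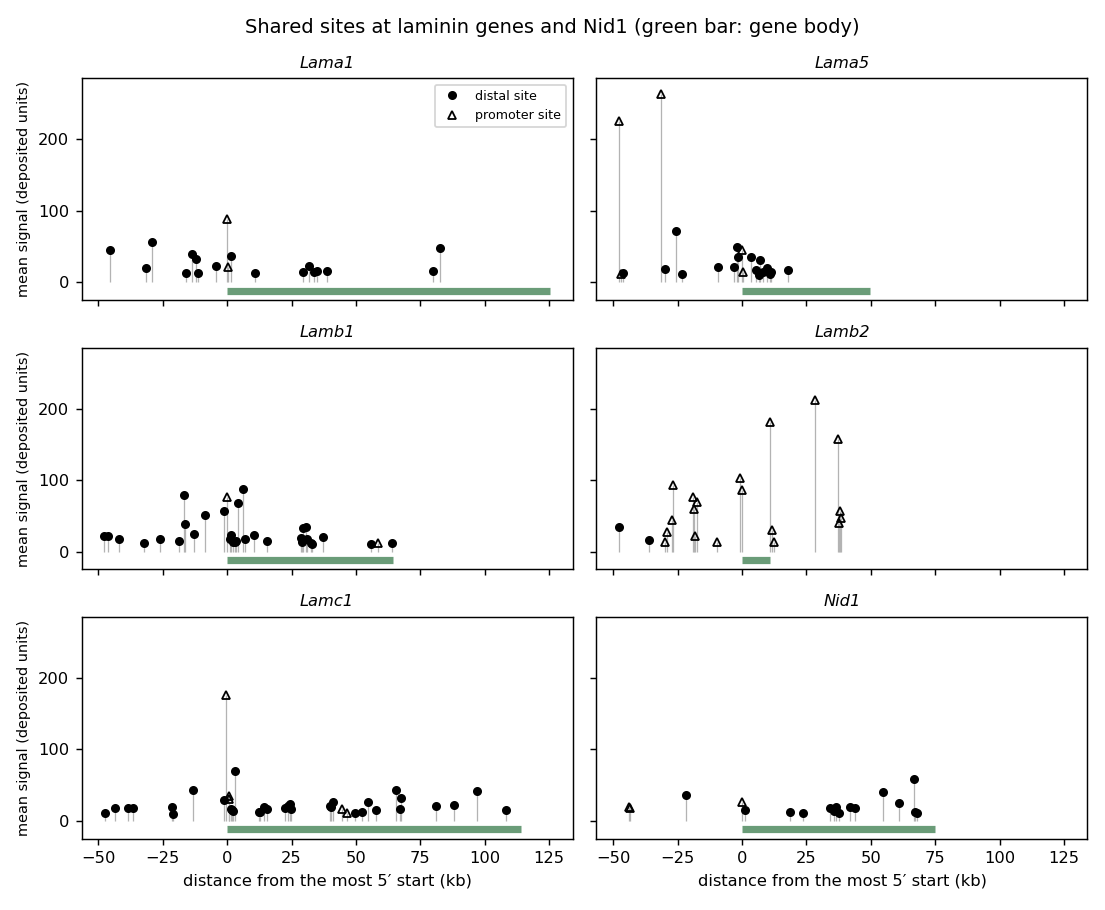
Mean signal of both replicates (y axis, the authors' units) of shared sites at the laminin genes and Nid1, against distance in kb from the most 5′ start in the direction of transcription; filled circles are distal sites, open triangles sites near any annotated start, and green bars the gene bodies. Lamc1 has its highest point at the start (176.7), Lamb1 has an intronic point of 87.9 beside a start of 76.8, and the points around Lamb2 are nearly all promoter sites.

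The sites inside the genes were unevenly placed. All 12 distal sites in the body of Col4a3 and all 9 in that of Lama5 lay in the 5′ 50% of the gene, and so did 30 of 38 (78.9%) in Col4a1, 7 of 9 (77.8%) in Lama1, 15 of 20 in Lamb1 and 18 of 26 (69.2%) in Lamc1. Over all 5102 genes of at least 49 kb, a limit chosen to take in Lama5, the 5′ 50% held 51.8% of distal sites in gene bodies. Col4a2 (24 of 46, 52.2%) was close to this, Col4a4 had 8 of 13 (61.5%) and Nid1 had 6 of 14 (42.9%). The longest stretch without a shared site was 80.1 kb in Col4a3 (59.3% of the gene, its 3′ end), 61.1 kb in Col4a4 (44.2%), 42.6 kb in Lama1 (33.9%, its 3′ end) and 31.7 kb at the 3′ end of Lama5. In Col4a1, Col4a2, Lamb1, Lamc1 and Nid1 the longest such stretch was between 14.7 and 18.7 kb.

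Long first introns held many of these sites in some members. How many distal sites lie in first introns over all genes was not worked out, so this may not be particular to the members. In Lamc1, 22 of 26 intronic distal sites lay in intron 1, which covers 61.0% of the gene (69.4 kb). In Col4a3 it was 11 of 12, in an intron that covers 40.0% of the gene, and in Col4a1 20 of 37, in one that covers 39.2%. Intron 1 of Nid1 covers 34.5% of the gene and held 3 of 14. The densest 10 kb of any member was in Col4a1, with 11 sites from 50.3 kb into the gene on, followed by Col4a2 and Lamb1 with 9 each and Lama5 with 8.

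Taken by chain type, the fetal chains had higher promoter signals than the mature chains, but this rested on the collagens and on Lama1 against Lama5. The medians were 80.6 and 86.1 for the fetal chains and 32.5 and 34.5 for the mature chains, a log2 ratio of 1.31 and 1.32 (1.32 ± 0.0071). With each collagen pair counted once the log2 ratio was 0.95, and for the laminin chains alone it was 0.16. Lama1 exceeded Lama5 by 1.06 and 0.91 on the log2 scale (0.98 ± 0.108, 1.98-fold). The beta chains went the other way: Lamb1 over Lamb2 was -0.33 and -0.52 (-0.43 ± 0.134) by the strongest peak and 0.01 and -0.36 by the peak nearest the start. Lamb1 and Lamb2 starts were thus level in replicate 1 and Lamb1 lower in replicate 2. In distal sites within 50 kb the fetal chains had a median of 34 (15 to 39) and the mature chains 18 (2 to 19), so the groups overlapped, and per 100 kb of body the medians were 32.2 (7.18 to 33.7) and 9.14 (0.0 to 18.2). All these chains belong to a few loci in the same tissue, and the groups were not compared by a test.

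At their shared sites the replicates measured the members alike. Peaks found in 1 replicate alone are left out of this comparison. Of all peaks, 74.7% in replicate 1 and 77.3% in replicate 2 overlapped a peak of the other list. Within 50 kb of the member starts this share ran from 65.6% (Col4a3 and Col4a4) to 95.5% (Lamb2) in replicate 1. In replicate 2 it ran from 68.8% (Lama5) to 94.4% (Lama1). None of the 269 sites differed by more than 2-fold between replicates after centring on all shared sites, and 0.638% of all 197749 shared sites did. The median absolute log2 difference was 0.227 for the members and 0.227 for all sites. The widest gaps were an intron 1 site of Lamc1 (22.5 in replicate 1 and 12.2 in replicate 2) and an intron 12 site of Lamb1 (9.34 and 17.4). The distal sites of the members had a median signal of 22.8 and 20.3, beside 19.8 and 18.6 for all distal sites.

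**Figure D5:**
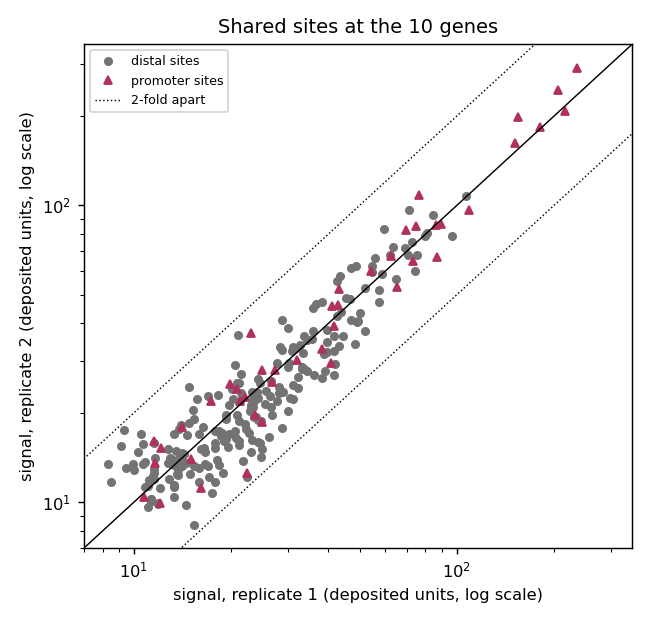
Signal of each shared site at the 10 genes in replicate 1 (x axis) and replicate 2 (y axis), both in the authors' units on a log scale; grey circles are distal sites, red triangles promoter sites, the solid line is equality and the dotted lines mark a 2-fold difference. The 269 sites lie between the dotted lines.

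Of the 17 spellings searched in the 300 bases around each start (250 before, 50 after), GGGCGG was in 7 of the 10 members, including Lama1, Lama5, Lamb1, Lamc1 and Nid1 beside the Col4a1/Col4a2 pair, and in 43.0% of all 21938 starts. CCAAT, the NFY core, was in 4 of 10 (Col4a1, Col4a2, Lamb1 and Nid1) and in 39.0% of all. TATAAA was in none of the 10 and in 12.6% of all. Col4a3 and Col4a4 held none of these 3 spellings. GTGGGAGG was in none of the 10 and in 4.91% of all, and GGAATG was in 1 (Nid1) and in 13.5% of all. The GTGGGAGG match printed for Lamc1 and the GGAATG match printed for Lamb2 lay further upstream than this window. In the central 150 bp of the 225 distal sites, the GATA spelling AGATAA was in 26 (11.6%, beside 6.97% of all 151068 distal sites), TGANTCA in 23 (10.2%, beside 6.9%), CCAAT in 48 (21.3%, beside 16.1%) and ACAAAG in 22 (9.78%, beside 13.2%). GGAATG was in 31 (13.8%, beside 13.0%) and TATAAA in 18 (8.0%, beside 9.01%). The LMX1B spelling TAATTA was in 9 (4.0%, beside 4.66%) and GTGGGAGG in 5 (2.22%, beside 3.0%). Lmx1b and Wt1 are podocyte transcription factors. A match is a run of letters and not a measured binding site, and the counts were not tested.

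Other basement membrane genes and their receptors spanned a wide range of promoter signals. Both lists held a promoter peak for 24 of 25 such genes, beside 71.8% of all protein-coding genes. The median promoter percentile of the 24 was 34.4. The 25 had a median of 15 distal sites within 50 kb (0 to 36), beside a median of 6 over all protein-coding genes. By the strongest promoter peak the highest was Serpinh1, the collagen chaperone (193.1 and 193.3). Itgb1, the beta subunit of laminin- and collagen-binding integrins, followed with 172.5 and 187.2. Agrn, the proteoglycan agrin, came next in mean rank (148.5 and 163.5), but had 55.8 and 61.6 by the peak nearest its most 5′ start. Col4a5, the X-linked partner of Col4a3 and Col4a4, had 58.1 and 60.4, above both values of their shared start, and 0 distal sites within 50 kb. Col4a6, its head-to-head neighbour, was the exception with a promoter peak in replicate 2 alone (11.0). Unlike the other pairs, Col4a5 and Col4a6 had no start of another protein-coding gene within 1 kb of their most 5′ starts. Hspg2, which encodes perlecan, had 117.4 and 161.9 with 34 distal sites. Nid2 had 131.5 and 129.2 with 29 distal sites, each Nid2 promoter value being above both of Nid1 (24.9 and 27.8).

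The tissue label was checked against marker genes. Both lists held promoter peaks for 9 of 10 kidney markers (all but Aqp2, the collecting duct water channel), 6 of 6 podocyte, 6 of 6 endothelial and 4 of 4 mesangial and pericyte markers, and for 0 of 8 markers of other tissues. Podocytes, endothelium and mesangial cells all make members of this set, and their part in any site was not tested.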

How the data were processed

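Per the file headers, the authors deposited a narrowPeak list for each replicate separately, called on reads of 36 nt aligned to mm10-minimal. Aligner, peak caller, threshold and depth: not given in the sources used here, which leaves the precision of any value unknown. The deposited signal (column 7) comes in steps of 1/64, and no label or header says if it was scaled for depth. The deposited −log10 p reaches at most 324 and served only to describe peaks.

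Scripts in Python 3.11.15 (numpy 2.4.6, pandas 2.3.3, matplotlib 3.10.9) assigned peaks to GENCODE M21 transcript starts. A promoter peak overlaps 1 kb to either side of a start, peaks sharing 1 bp form a site, and gene body sites were compared with genes within 1.5-fold of their length. CpG ratio and GC were taken over 500 bp to each side of the most 5′ start. Steps were tested on simulated data. The 10 genes, the groups and the gene lists were chosen with earlier results of these data known. All 10 were described, with the strongest distal site within 50 kb and the strongest site in the body of each; other sites shown were chosen after their values were seen. Of the 25 other genes, the 3 highest in promoter signal, those lacking a promoter peak in a replicate, and Col4a5, Col4a6, Hspg2, Agrn and Nid2 were named. Alternatives were other windows, coding transcripts only, the upper 50% of peaks, other ways of taking the promoter signal, a stricter overlap and each replicate alone.

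Motifs were exact matches on both strands. They were GGGCGG (SP/KLF), CCAAT (NFY), TATAAA (promoter box), CCGGAAG (ETS), TGANTCA (AP-1), GGAATG (TEAD), TAATTA (LMX1B), GTGGGAGG (WT1), ACAAAG (SOX), CAGACA (SMAD), CACGTG (E-box), GTAAACA (forkhead), AGATAA (of the GATA factor family) and, by name, longer spellings for NRF1, HNF1, NFI and CTCF. The HNF1 spelling can contain the LMX1B one. Sequence was read from the GRCm38 reference genome. The start shared by Col4a1 and Col4a2 lies inside annotated exons and was not printed.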

Additional observations from a re-analysis of the deposited data

How the results depend on the processing

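All 10 members kept a promoter peak under every alternative, and of the 25 other genes 23 to 25 did. Neither the ratio between the collagen pairs nor that between fetal and mature chains changed direction, but Lamb1 over Lamb2 did in replicate 1, from -0.33 by the strongest peak to 0.01 by the peak nearest the start. A signal or ratio was taken to have moved if it changed by more than the SD of the replicates. A count or density had moved if it changed by more than 1.5-fold. Of the values for the groups and the whole set 37 stayed and 11 moved, and of those for single genes 104 stayed and 36 moved. Summing the peaks of a promoter window gave a median member signal of 121.4 in place of 75.5, a log2 ratio of 3.65 in place of 1.92 between the collagen pairs and of 2.15 in place of 1.32 between fetal and mature chains. Taking the peak nearest the start gave a member median of 67.5 and a Lamc1 mean of 110.4 in place of 176.7. The fetal over mature ratio was 1.23 with a 2 kb window, 0.95 with each collagen pair counted once and 0.16 for laminins alone. With a 2 kb window the Lamb2 value was 181.9, above Lamc1 at 176.7, but from a site 54 bp from the start of Usp19. With 500 bp Lamb2 had 86.1. The member median of 19 distal sites was 11 with the upper 50% of peaks and 11.5 with a 25 kb window, and the median of 18.5 body sites per 100 kb was 6.28 with the upper 50% of peaks; the last 3 rest on fewer peaks or a smaller window by construction. Within 100 kb the Col4a3 and Col4a4 window and Lama1 stood at percentile 70.9, down from 94.5 and 88.1. Nid1, whose 10 distal sites just met the limit of 10, had 7 (percentile 60.4) with the stricter overlap. It had 2 (38.8) with the upper 50% of peaks, and 11 or 12 with the peaks of 1 replicate alone. With each replicate alone the member signal was 74.7 to 76.2, the pair ratio 1.76 to 2.09, the chain ratio 1.31 to 1.32, the distal median 25 to 30 and the body density 21.2 to 22.5, the last pair counting peaks that need not be shared. The cause of the other changes was not tested. No paired analysis was possible because the study has 1 group. Depth is unknown, so a missing peak is not evidence of closed chromatin.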
